A study of Mus musculus with 9 samples.

Results

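The SLC25 family of mitochondrial carriers was examined in transcriptomes of whole mouse hearts. Its members were taken by name, as every gene whose symbol is Slc25a followed by a number, and 47 of the 41710 gene names in the deposited tables fit this rule. The 47 genes lie on 19 chromosomes and are represented by 257 transcripts. The hearts came from male mice of strain FVB/N at 8 months of age, in 3 groups of 3 libraries. Tg-RKIP mice carry a transgene for RKIP (RAF kinase inhibitor protein, gene Pebp1), expressed specifically in the myocardium under the alpha-MHC promoter. A second group is labelled as transgenic for GRK2 (G protein-coupled receptor kinase 2), with a promoter that is not described in the sources used here. The controls are non-transgenic FVB mice, and the labels give no treatment for any group. The labels number the replicates of each group from 1 to 3, and the study counts Tg-RKIP and FVB libraries as separate mice. Whether the libraries labelled Tg-GRK2 are separate mice is not stated in the sources used here.

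SLC25 proteins are carriers that, with few exceptions, sit in the inner mitochondrial membrane and exchange metabolites, nucleotides, cofactors and ions between the cytosol and the matrix. In the heart, which makes most of its ATP in mitochondria, the ADP/ATP carriers and the phosphate carrier supply the ATP synthase and export its product. Other members admit long-chain acylcarnitines for fatty acid oxidation, or run the malate-aspartate shuttle that carries reducing equivalents into the matrix.

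Promoter windows from RefSeq were found for 36 of the 47 members, and the 250 bases before the start site were searched on both strands for 5 short motifs. The windows of 5 members are shown because their genes carry the main results. They are Slc25a4, the most abundant member, Slc25a34, with the largest fall in Tg-RKIP, Slc25a20 and Slc25a13, which also fell, and Slc25a1, with the largest rise. Each is written 5′ to 3′ on the strand of the gene, and capitals mark a match to AAGGTCA, a half-site bound by nuclear receptors such as the oestrogen-related receptors (Slc25a34, on the reverse strand), to CCGGAAGT, a motif of ETS factors (Slc25a20), or to CACGTG, the E-box (Slc25a13 and Slc25a1).
Slc25a4 (GRCm38.p6 chr8:46211063-46211312, minus strand): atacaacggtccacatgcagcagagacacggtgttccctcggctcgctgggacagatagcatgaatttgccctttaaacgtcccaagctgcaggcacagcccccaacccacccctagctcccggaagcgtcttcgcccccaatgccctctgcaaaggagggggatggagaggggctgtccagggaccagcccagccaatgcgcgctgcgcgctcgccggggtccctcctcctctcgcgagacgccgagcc
Slc25a34 (GRCm38.p6 chr4:141623835-141624084, minus strand): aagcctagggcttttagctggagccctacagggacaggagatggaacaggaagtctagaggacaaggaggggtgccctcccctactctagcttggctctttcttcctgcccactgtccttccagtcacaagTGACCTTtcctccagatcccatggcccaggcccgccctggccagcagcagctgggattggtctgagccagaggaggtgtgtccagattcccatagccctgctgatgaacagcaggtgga
Slc25a20 (GRCm38.p6 chr9:108661886-108662135, plus strand): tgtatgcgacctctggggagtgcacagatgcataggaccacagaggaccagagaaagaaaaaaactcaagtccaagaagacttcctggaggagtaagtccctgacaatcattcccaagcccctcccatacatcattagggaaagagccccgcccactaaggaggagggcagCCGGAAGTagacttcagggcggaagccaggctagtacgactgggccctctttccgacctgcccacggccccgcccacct
Slc25a13 (GRCm38.p6 chr6:6217174-6217423, minus strand): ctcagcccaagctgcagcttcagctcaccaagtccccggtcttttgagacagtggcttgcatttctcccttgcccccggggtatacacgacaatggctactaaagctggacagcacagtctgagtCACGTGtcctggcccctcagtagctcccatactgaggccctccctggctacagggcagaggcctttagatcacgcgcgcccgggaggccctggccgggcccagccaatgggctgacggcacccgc
Slc25a1 (GRCm38.p6 chr16:17928220-17928469, minus strand): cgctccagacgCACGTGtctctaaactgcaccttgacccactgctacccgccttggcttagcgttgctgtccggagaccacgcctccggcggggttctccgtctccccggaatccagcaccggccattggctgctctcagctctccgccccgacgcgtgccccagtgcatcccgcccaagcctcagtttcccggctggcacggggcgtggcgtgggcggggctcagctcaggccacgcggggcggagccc

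AAGGTCA occurred in the windows of 1 of the 36 members (2.78%), against 4.7% of the 27025 genes with a window. CCGGAAGT was likewise found in 1 member (2.78%), against 3.23% of all genes. GCGCATGCG, a motif of NRF1, was in 0 of the 36 members and in 1.64% of all genes. The E-box CACGTG was held by 7 members (19.4%), against 6.86% of all genes, and of these Slc25a1 and Slc25a14 rose in Tg-RKIP while Slc25a13, Slc25a15, Slc25a33 and Slc25a36 fell with the TMM scaling described below (Slc25a36 turned with another scaling). Slc25a31, which also holds it, was not tested. GGGCGG, the GC box, was in 25 members (69.4%) and in 35.4% of all genes. Slc25a34, Slc25a20 and Slc25a1 were among the 25, and their GC boxes are left in lower case in the windows above. These matches describe letters in a window and not binding.

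Libraries held from 25458108 to 33447654 reads on transcripts. Pebp1 was higher in all 3 Tg-RKIP libraries (log2 fold change 4.81 ± 0.019 (SE) against FVB, adjusted p = 4.04e-33). Grk2 was not higher in the libraries labelled Tg-GRK2 than in FVB (0.054 ± 0.0384 (SE), adjusted p = 0.354), so this group is named by its label throughout. Adjusted p-values are from edgeR's quasi-likelihood test on read counts scaled by TMM, with Benjamini-Hochberg adjustment over the 15504 genes tested and a threshold of 0.05. The median squared standardised difference per gene between 2 libraries of a group was 0.624 to 0.691, where sampling noise alone gives 0.455, and the p-values rest on this spread. The mean of the same quantity was 1.74 to 2.85, except in the pairs that hold replicate 1 of the libraries labelled Tg-GRK2, where it was 22.7 and 27.7. Without that replicate 8 members were called higher and 7 lower in the libraries labelled Tg-GRK2, where 10 and 9 were called with it. Whether the spread between libraries, on which the p-values rest, holds the full variation between mice was not tested.

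Composition differed between the groups, and this touches every fold change below. Genes encoded by the mitochondrial DNA took 11.5% to 11.8% of the reads of Tg-RKIP, against 22.9% to 23.2% of those of FVB and 22.4% to 22.9% for the Tg-GRK2 label. With TMM scaling the median log2 fold change over all genes tested was 0.0085 in Tg-RKIP against FVB, and with scaling to library size alone it was 0.38. A value near 0 under TMM is therefore a value near the middle of all genes. TPM, the level per transcript length scaled to the same total in every library, carries the same kind of shift, with a median of 0.43 on the log2 scale.

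In the control hearts 3 carriers made up most of the family's transcripts. Slc25a4, the ADP/ATP carrier of heart and muscle, reached 2689.7 ± 18.6 TPM (mean ± SD, n = 3) in FVB. Slc25a3, the phosphate carrier, reached 1727 ± 34.8 TPM. Slc25a5, the more widely expressed ADP/ATP carrier, had 335 ± 12 TPM and stood below Slc25a11, the oxoglutarate/malate carrier, with 381 ± 7.33 TPM. Slc25a3, Slc25a4 and Slc25a5 together held 77.9% to 79.4% of the family's summed TPM in every library of all groups.

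Below them the levels fell off steeply. Slc25a20, the carnitine/acylcarnitine carrier, had 131 ± 5.33 TPM in FVB, Slc25a12 and Slc25a13, the aspartate/glutamate carriers, had 117 ± 3.86 and 107 ± 1.34, and Slc25a34, whose substrate is uncertain, had 81.8 ± 0.334. Next in order came Slc25a39, a glutathione carrier, with 79.4 ± 3.38 TPM, and its FVB libraries overlapped with those of Slc25a34. The ranges of Slc25a20 and Slc25a12 in FVB did not overlap, nor did those of Slc25a12 and Slc25a13. The other tested members were at 0.90 to 34.3 TPM in FVB.

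**Figure D1:**
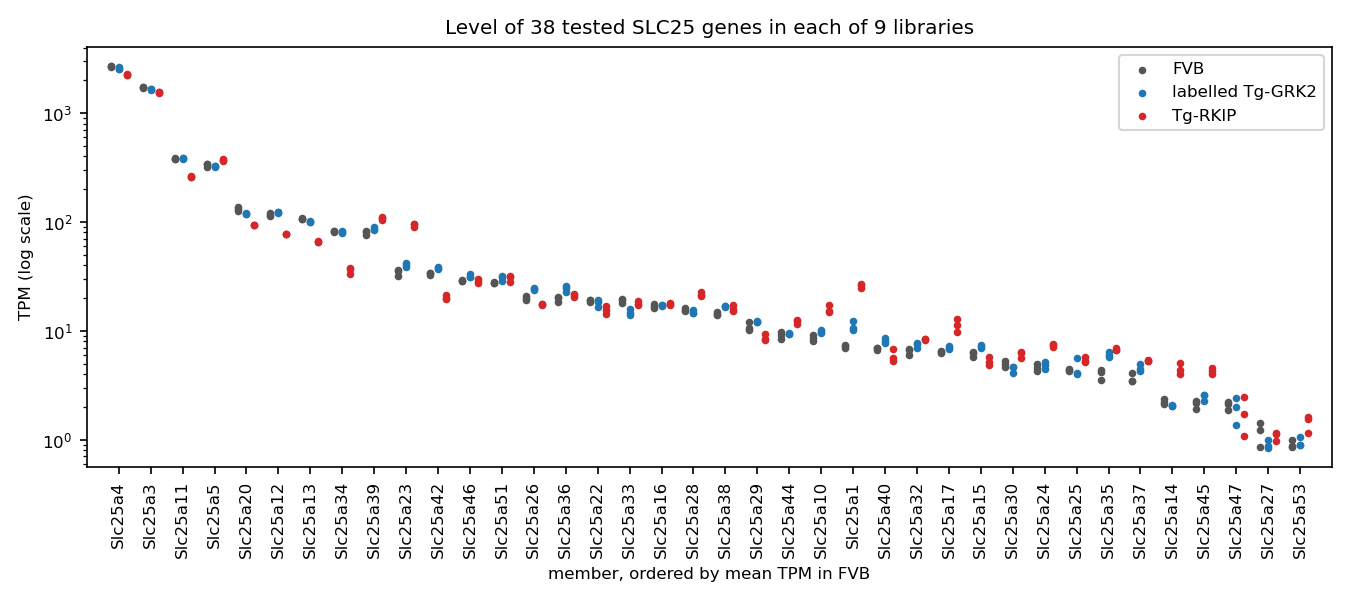
TPM on a log axis for 38 of the 39 tested members, ordered by mean level in FVB, with a point for each of the 9 libraries. Slc25a4 and Slc25a3 stand above all other members in every library, and against FVB the Tg-RKIP mean is highest for Slc25a1 (3.61-fold in TPM) and lowest for Slc25a34 (0.438-fold in TPM).

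Filtering left 39 members to test. The other 8 (Slc25a2, Slc25a18, Slc25a21, Slc25a31, Slc25a41, Slc25a43, Slc25a48 and Slc25a54) had under 20 reads in every library. Slc25a54 had 0 reads throughout and Slc25a41 at most 2, so both were at or under the floor of 3 reads. Slc25a31 is the ADP/ATP carrier of testis, and Slc25a2 an ornithine carrier. Several member genes lie side by side, and some overlap a gene on the opposite strand. Among these are Slc25a11 with Rnf167, Slc25a26 with Lrig1, Slc25a35 with Rangrf, Slc25a25 with Naif1 and Slc25a53 with Zcchc18. As counting by strand is not stated, reads from such pairs may not have been told apart.

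In Tg-RKIP hearts 23 of the 39 tested members fell and 8 rose against FVB. Over all genes tested 37.1% were called lower and 36.8% higher in this comparison, and the members' shares were 59% and 20.5%. The members' median log2 fold change was -0.28, against 0.0085 for all genes. Of the 39, 9 lay above the median of all genes. A change of at least 1 on the log2 scale was reached by 4 members that fell and 1 that rose, and a change of at least 0.5 by 15 and 4. No share of all genes past these sizes is given here, so these counts cannot be set against the background. Scaling to library size alone moved the counts to 14 lower and 18 higher, and the members' median to 0.094 against 0.38 for all genes, so that the difference between the medians stayed at -0.29. Under both scalings 14 members were called lower and 8 higher. For library size scaling no share of all genes called is given here either. Of the 8 members not called with TMM, 7 were called higher with library size scaling, at 0.27 to 0.42, near the median of all genes on that scale.

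**Figure D2:**
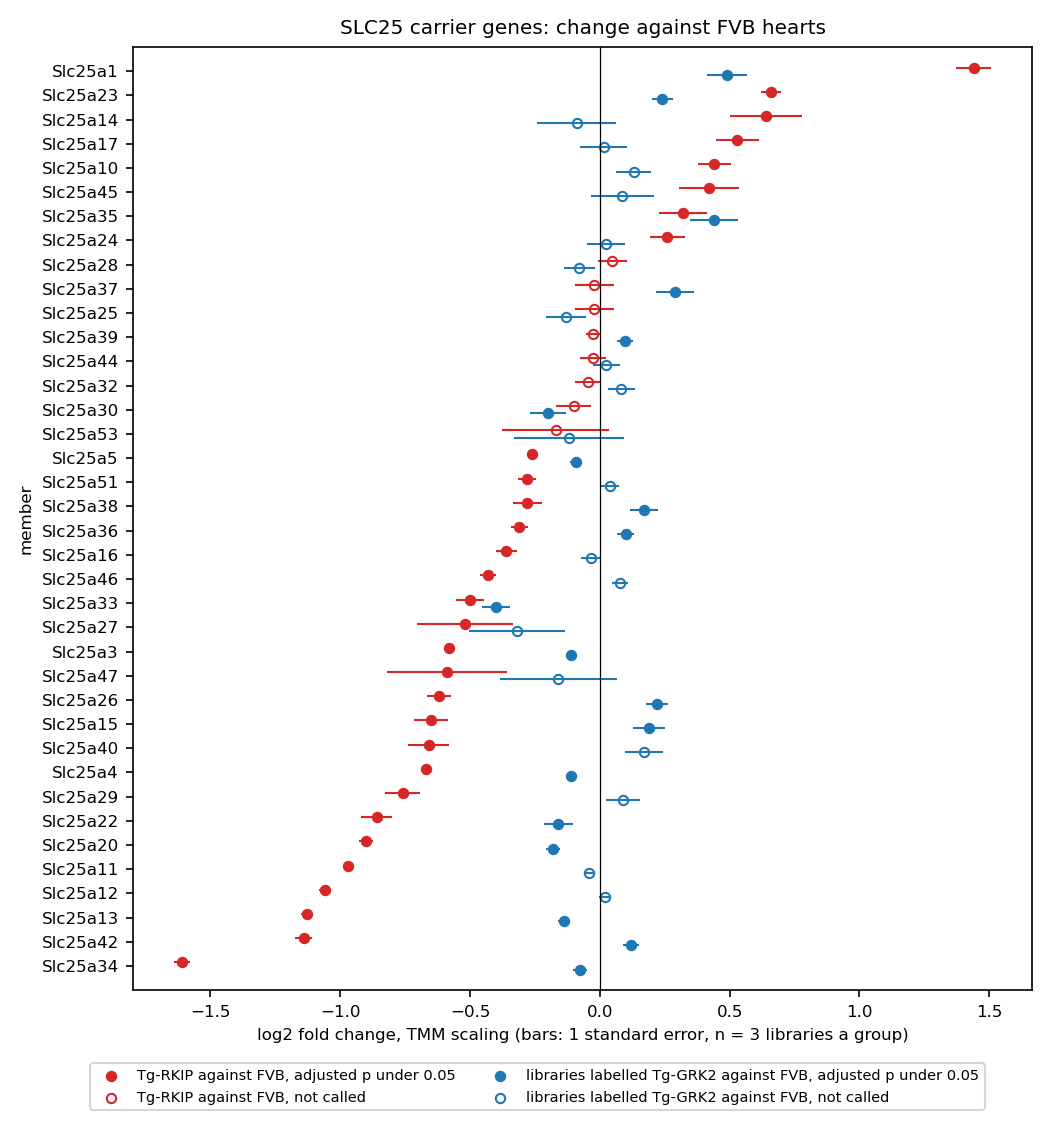
Log2 fold change under TMM scaling for 38 of the 39 tested members in Tg-RKIP (red) and in the libraries labelled Tg-GRK2 (blue) against the same 3 FVB libraries, with 1 standard error. Filled points passed the threshold, and the red points run from -1.61 for Slc25a34 to 1.44 for Slc25a1 while the blue ones run from -0.40 to 0.49. With library size scaling 13 of all 39 members change sign in Tg-RKIP.

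Slc25a4 and Slc25a3, which serve the ATP synthase, fell in Tg-RKIP. Slc25a4 (chr8:46659834-46664321 in GRCm39, the build in the submitters' notes, as for all gene positions here) had 107954, 110331 and 110258 in the FVB hearts, 100582, 102294 and 101618 in those labelled Tg-GRK2 and 69165, 68112 and 69590.3 in the Tg-RKIP hearts, as TMM-normalised reads, the scale of all values given per library below unless a percentage or TPM is named. All Tg-RKIP libraries lay below all others, with a log2 fold change of -0.67 ± 0.0139 (SE), adjusted p = 9.87e-21. Slc25a3 (chr10:90952436-90959921) had 49213, 48078 and 50139 in the FVB hearts, 45674, 45266 and 45314 in those labelled Tg-GRK2 and 32965, 32390.2 and 33436 in the Tg-RKIP hearts. It fell to 0.67-fold of FVB (log2 -0.58 ± 0.0173 (SE), adjusted p = 6.22e-18), again without overlap. Both were also called lower with library size scaling, at -0.29 and -0.20.

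Slc25a5 changed less than its partner, and its direction turned with the scaling. Its TMM-normalised reads were 8857, 8458 and 9064 in the FVB hearts, 8207, 8200.5 and 8348 in those labelled Tg-GRK2 and 7305, 7427 and 7228 in the Tg-RKIP hearts. The log2 fold change was -0.26 ± 0.0226 (SE), adjusted p = 7.66e-10 with TMM and 0.11 with library size scaling, called in both. A ratio within a library does not depend on the scaling, and by TPM Slc25a5 made up 14.1%, 14.5% and 13.9% of Slc25a4 plus Slc25a5 in Tg-RKIP, against 11.3%, 10.6% and 11.3% in FVB. Under the Tg-GRK2 label the share was 11.03% to 11.3%. The Tg-RKIP values stood above all others, by 3.07 percentage points over FVB (exact two-sided permutation p = 0.1, the smallest that 3 against 3 libraries allow). The libraries labelled Tg-GRK2 overlapped with FVB (exact permutation p = 0.9).

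Of the 3 tested ATP-Mg/phosphate carriers, which adjust the adenine nucleotide pool of the matrix, none was called lower in Tg-RKIP. Slc25a23 (chr17:57350711-57366863), which is activated by calcium, had 1489, 1411 and 1539 in the FVB hearts, 1779, 1797 and 1661 in those labelled Tg-GRK2 and 2367, 2234 and 2398 in the Tg-RKIP hearts, with no overlap between the groups. It rose 1.58-fold in Tg-RKIP (log2 0.66 ± 0.038 (SE), adjusted p = 8.63e-13). Slc25a24 also rose (log2 0.26 ± 0.0687 (SE), adjusted p = 0.0022), while Slc25a25 was not called at -0.021 ± 0.0748 (SE), adjusted p = 0.812.

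For Slc25a23 the transcripts moved as well as the sum. Its short coding transcript of 598 bases held 60.1%, 58.3% and 60.5% of the gene's TPM in Tg-RKIP, against 41.6%, 39.9% and 40.7% in FVB. The 3362-base transcript held 34.1%, 34.8% and 34.6%, against 48.2%, 53.5% and 51.8%. Neither overlapped between these groups (exact permutation p = 0.1 for both, the smallest possible), and the gene's fold in TPM, 2.73, exceeded that in reads. Reads of 50 bases had to be divided between these transcripts by a method that is not given in the sources used here. In Slc25a3 the 1612-base coding transcript rose from 3.47% ± 0.134 to 5.6% ± 0.146 of the gene's TPM (SD, n = 3, exact permutation p = 0.1), and the 1341-base one held 92.7% in FVB and 90.3% in Tg-RKIP.

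The carriers of acylcarnitines and of coenzyme A, Slc25a20 and Slc25a42, showed some of the largest falls. Slc25a20 (chr9:108539287-108561840) had 4718, 5158 and 4946 in the FVB hearts, 4329, 4369 and 4355 in those labelled Tg-GRK2 and 2607, 2670.1 and 2654 in the Tg-RKIP hearts. The Tg-RKIP libraries were lowest, and the log2 fold change was -0.90 ± 0.0277 (SE), adjusted p = 9.78e-18, or 0.535-fold. The library-size value was -0.53, called as well. Slc25a42 (chr8:70636990-70664955), which brings coenzyme A into the matrix, had 2194, 2140.4 and 2205 in the FVB hearts, 2412, 2336 and 2361 in those labelled Tg-GRK2 and 1023, 975 and 959 in the Tg-RKIP hearts. It fell to 0.452-fold in Tg-RKIP (log2 -1.14 ± 0.0325 (SE), adjusted p = 2.46e-18), and its Tg-RKIP libraries were lowest by a wide gap.

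All 3 tested carriers of the malate-aspartate shuttle fell. Slc25a12 (aralar, chr2:71101407-71198093) had 6222, 6200.2 and 6279 in the FVB hearts, 6329, 6218 and 6390.3 in those labelled Tg-GRK2 and 2994, 3014 and 2936 in the Tg-RKIP hearts. Slc25a13 (citrin, chr6:6041218-6217173) had 6691, 6779 and 6873 in the FVB hearts, 6319, 6087 and 6069 in those labelled Tg-GRK2 and 3050.4, 3149 and 3098 in the Tg-RKIP hearts. Slc25a11 (chr11:70535022-70538305), their malate-exchanging partner, had 13977, 13724 and 13604 in the FVB hearts, 13416, 13385 and 13317 in those labelled Tg-GRK2 and 6899, 7085 and 7036 in the Tg-RKIP hearts. In all 3 the Tg-RKIP libraries lay below the rest without overlap. The log2 fold changes were -1.06 ± 0.0214 (SE), adjusted p = 5.31e-21 for Slc25a12, -1.13 ± 0.0229 (SE), adjusted p = 5.96e-21 for Slc25a13, and -0.97 ± 0.0183 (SE), adjusted p = 1.55e-21 for Slc25a11. With library size scaling they were -0.69, -0.75 and -0.60, all called. For Slc25a12 a 2392-base transcript annotated for nonsense-mediated decay held 72.7% of the gene's TPM in FVB and 66.2% in Tg-RKIP. The 6351-base coding transcript held 10.1% and 9.7%, and a 994-base transcript without a coding annotation 8.25% and 22.8%. Slc25a22, a glutamate carrier, had 986, 1033 and 1016 in the FVB hearts, 940.3, 932 and 852 in those labelled Tg-GRK2 and 526, 523 and 639 in the Tg-RKIP hearts, with the Tg-RKIP libraries lowest and a log2 fold change of -0.86 ± 0.06 (SE), adjusted p = 2.56e-11. Slc25a18, the other glutamate carrier, was not tested.

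The other carriers of dicarboxylates and citrate went the opposite way from Slc25a11. Slc25a1 (chr16:17743087-17746083), which exports citrate for cytosolic acetyl-CoA and lipid synthesis, had 228, 238 and 229 in the FVB hearts, 332, 354 and 295 in those labelled Tg-GRK2 and 651, 608 and 627 in the Tg-RKIP hearts. The 3 groups did not overlap, and Tg-RKIP was highest. Its rise was 2.71-fold in Tg-RKIP, the largest of the family (log2 1.44 ± 0.0664 (SE), adjusted p = 1.55e-14). Slc25a10, the dicarboxylate carrier, had 393, 347 and 372 in the FVB hearts, 398, 416 and 405 in those labelled Tg-GRK2 and 546, 478 and 489 in the Tg-RKIP hearts, highest in Tg-RKIP, and rose by log2 0.44 ± 0.0636 (SE), adjusted p = 2.11e-06.

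**Figure D3:**
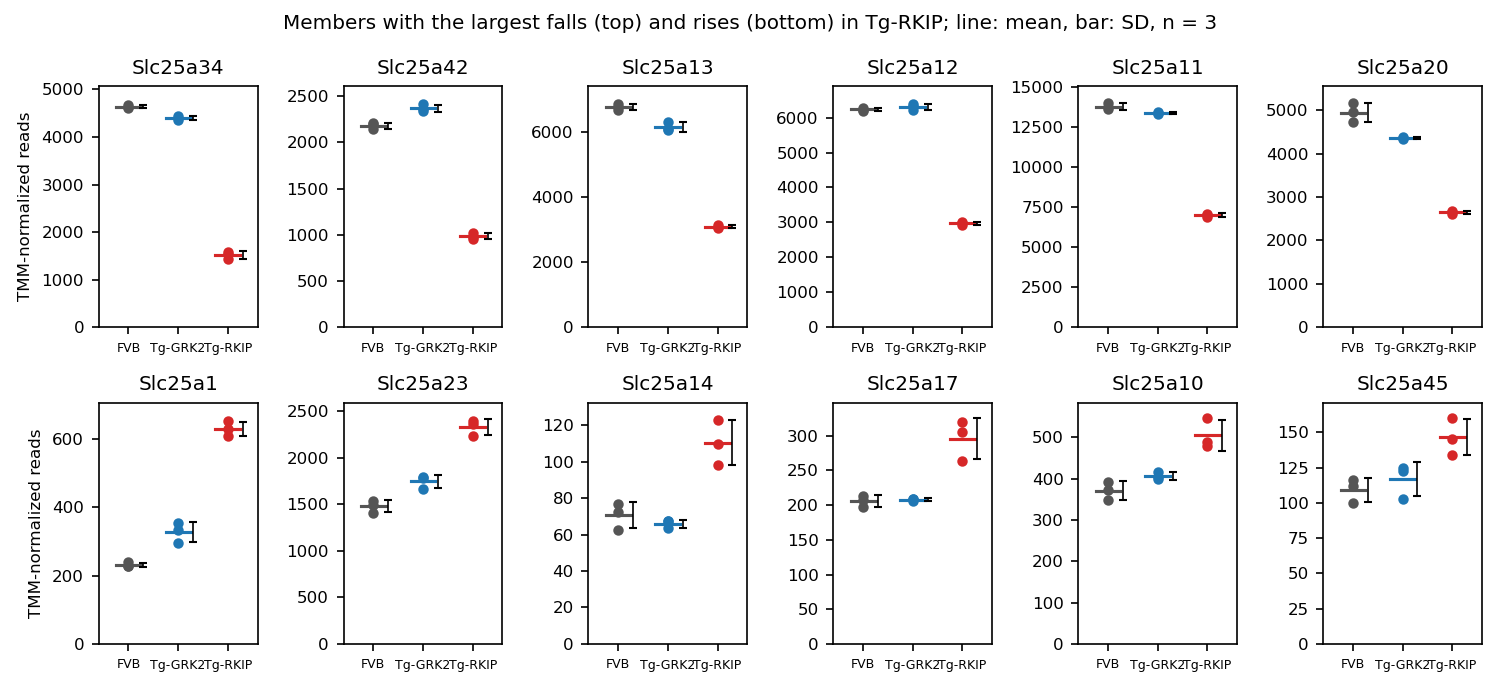
TMM-normalised reads by library for the 6 members with the largest falls (top) and the 6 with the largest rises (bottom) in Tg-RKIP, with the group mean as a line and the SD as a bar (n = 3). In the top row every Tg-RKIP library lies below all others, and in the bottom row every Tg-RKIP library lies above all others.

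The largest fall of the family was that of Slc25a34 (chr4:141346135-141351132). It had 4601, 4664 and 4636 in the FVB hearts, 4397, 4429 and 4353 in those labelled Tg-GRK2 and 1539, 1587 and 1429.6 in the Tg-RKIP hearts. Tg-RKIP stood far below both other groups, at 0.328-fold of FVB (log2 -1.61 ± 0.0297 (SE), adjusted p = 1.1e-21), and at -1.23 with library size scaling. Slc25a35, likewise of uncertain substrate, had 202, 182 and 158 in the FVB hearts, 254, 223 and 258 in those labelled Tg-GRK2 and 228, 222 and 227 in the Tg-RKIP hearts. It rose in Tg-RKIP (log2 0.32 ± 0.0922 (SE), adjusted p = 0.00392), and the FVB libraries were the lowest of the 9.

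Other members of uncertain substrate or site moved less. Slc25a46, an outer membrane protein with a role in mitochondrial dynamics, fell by 0.43 on the log2 scale with TMM (adjusted p = 5.42e-11) and was not called at -0.059 with library size scaling. Slc25a47 was called at -0.59 ± 0.231 (SE), adjusted p = 0.0252 on 36 to 56 reads in the libraries of these groups, lost the call with library size scaling (-0.22), and overlapped between the groups in TPM (exact permutation p = 0.6). Slc25a53 was not called at -0.17 ± 0.206 (SE), adjusted p = 0.471.

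Of the 8 carriers of nucleotides and cofactors, 6 fell and 1 rose in Tg-RKIP with TMM. Of all genes tested, 37.1% were called lower and 36.8% higher. Of the 6, only Slc25a42 (-0.77) and Slc25a33 were also called lower with library size scaling. Slc25a17, the peroxisomal carrier of coenzyme A, FAD and NAD, was the one that rose, with 208, 197 and 213 in the FVB hearts, 209, 206 and 209 in those labelled Tg-GRK2 and 263, 319 and 305 in the Tg-RKIP hearts, highest in Tg-RKIP. Its log2 fold change was 0.53 ± 0.0819 (SE), adjusted p = 5.92e-06. Slc25a33, a pyrimidine nucleotide carrier, had 778, 763 and 721 in the FVB hearts, 565, 534 and 616 in those labelled Tg-GRK2 and 520.2, 559 and 521 in the Tg-RKIP hearts, with FVB above both other groups and a value of -0.50 ± 0.0542 (SE), adjusted p = 3.85e-08 in Tg-RKIP with TMM. With library size scaling Slc25a33 was at -0.12, called, and with limma on log2(TPM + 0.1) it lost the call (-0.081). In TPM its Tg-RKIP and FVB libraries overlapped (exact permutation p = 0.2). Slc25a16 was called at -0.36 ± 0.0389 (SE), adjusted p = 3.03e-08 with TMM and was 0.014, not called, with library size scaling. Slc25a32, which carries folate and FAD, was not called at -0.045 ± 0.0507 (SE), adjusted p = 0.433.

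The directions of Slc25a36 and Slc25a51 depended on the scaling as well. Slc25a36, another pyrimidine nucleotide carrier, had 1789.5, 1817 and 1695 in the FVB hearts, 1902, 1893 and 1899 in those labelled Tg-GRK2 and 1406, 1464 and 1402 in the Tg-RKIP hearts, and was -0.31 ± 0.033 (SE), adjusted p = 2.43e-08 with TMM and 0.064, not called, with library size scaling. Slc25a51, the NAD carrier, had 2498, 2625 and 2576 in the FVB hearts, 2748, 2587 and 2575 in those labelled Tg-GRK2 and 2193, 2164 and 1986 in the Tg-RKIP hearts, at -0.28 ± 0.0354 (SE), adjusted p = 3.71e-07 with TMM and 0.097, called, with library size. In both the Tg-RKIP libraries were the lowest on the TMM scale. Over the whole family the sign turned between these scalings for 13 members, and Slc25a5 and Slc25a51 were among those called under both.

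Amino acid and S-adenosylmethionine carriers mostly fell. Slc25a15, the ornithine carrier, had 451, 422 and 466 in the FVB hearts, 514, 518 and 494 in those labelled Tg-GRK2 and 309, 262 and 284 in the Tg-RKIP hearts, lowest in Tg-RKIP and highest in the libraries labelled Tg-GRK2 (Tg-RKIP log2 -0.65 ± 0.0669 (SE), adjusted p = 1.46e-08). Slc25a26, the S-adenosylmethionine carrier, had 769.9, 828 and 859 in the FVB hearts, 935, 971 and 961 in those labelled Tg-GRK2 and 520.2, 540.2 and 537 in the Tg-RKIP hearts, in the same order of groups (Tg-RKIP log2 -0.62 ± 0.0473 (SE), adjusted p = 1.05e-10). Slc25a29, a carrier of basic amino acids, fell (log2 -0.76 ± 0.0688 (SE), adjusted p = 2.03e-09). Slc25a38, the glycine carrier needed for haem synthesis in erythroid cells, had 525, 508 and 529 in the FVB hearts, 607, 567 and 579.5 in those labelled Tg-GRK2 and 425, 406 and 458 in the Tg-RKIP hearts. It was -0.28 ± 0.0562 (SE), adjusted p = 0.000128 with TMM and 0.094, not called, with library size scaling.

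The exception in this group was Slc25a45, with 99.9, 112 and 116 in the FVB hearts, 125, 122 and 103 in those labelled Tg-GRK2 and 159.9, 145 and 134 in the Tg-RKIP hearts, highest in Tg-RKIP (log2 0.42 ± 0.115 (SE), adjusted p = 0.00261). Its gene sum and its main transcript parted. The 2480-base transcript held 56.1%, 40.7% and 27.7% of the gene's TPM in Tg-RKIP and 100%, 95.4% and 88.4% in FVB, and counted alone it was at -0.59. Slc25a44, a carrier of branched-chain amino acids, was not called at -0.027 ± 0.0512 (SE), adjusted p = 0.648.

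Neither of the 2 iron carriers was called in Tg-RKIP with TMM. Slc25a37 (mitoferrin-1, the iron importer of erythroid cells) had 347, 432 and 351 in the FVB hearts, 452, 491 and 443 in those labelled Tg-GRK2 and 387, 361 and 374 in the Tg-RKIP hearts, with the libraries labelled Tg-GRK2 highest and the other groups overlapping. Tg-RKIP was not called at -0.021 ± 0.0749 (SE), adjusted p = 0.807, and 0.35, called, with library size scaling. Slc25a28 (mitoferrin-2) was not called at 0.048 ± 0.0558 (SE), adjusted p = 0.45. Slc25a39 was not called at -0.025 ± 0.0299 (SE), adjusted p = 0.457, whereas Slc25a40, its close relative, fell (log2 -0.66 ± 0.0804 (SE), adjusted p = 2.06e-07). In TPM the Tg-RKIP and FVB libraries of Slc25a40 overlapped (exact permutation p = 0.2).

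The uncoupling-protein-like carriers split. Slc25a14 had 76.6, 62.7 and 72.3 in the FVB hearts, 67.2, 63.5 and 67.3 in those labelled Tg-GRK2 and 123, 98.3 and 110.0 in the Tg-RKIP hearts, on few reads but highest in Tg-RKIP in every library (log2 0.64 ± 0.137 (SE), adjusted p = 0.000242). Slc25a14 lost the call when only the most abundant transcript was counted, at 0.82. Slc25a30 had 373, 351 and 394 in the FVB hearts, 300.4, 329 and 337 in those labelled Tg-GRK2 and 355, 360.4 and 322 in the Tg-RKIP hearts, with overlap between Tg-RKIP and FVB, and was not called at -0.10 ± 0.0677 (SE), adjusted p = 0.186. Slc25a27 was called at -0.52 ± 0.184 (SE), adjusted p = 0.0157 on 44 to 66 reads a library in these groups, and lost the call with library size scaling (-0.14).

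The family's summed TPM, most of it held by a few abundant members, was lower in Tg-RKIP. It was 6007, 5967 and 6041 in the FVB hearts, 5820.0, 5922 and 5796 under the Tg-GRK2 label, and 5328, 5215 and 5273 in the Tg-RKIP hearts. The groups did not overlap. The ratio of Tg-RKIP to FVB was 0.878 (exact permutation p = 0.1, the smallest possible). The ratio was 0.686 when TPM was computed over the genes that are not mitochondrially encoded, and 0.657 for TMM-normalised reads per kilobase. Mean TPM went from 2690 in FVB to 2261 in Tg-RKIP for Slc25a4. It went from 1727 to 1545 for Slc25a3 and from 381 to 259 for Slc25a11. A test on log2(TPM + 0.1) (limma) called 19 members higher and 13 lower, where the median of all genes was 0.43. The sum therefore does not speak for every member. Fewer cells of a type and less RNA per cell cannot be told apart in these whole-heart libraries.

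**Figure D4:**
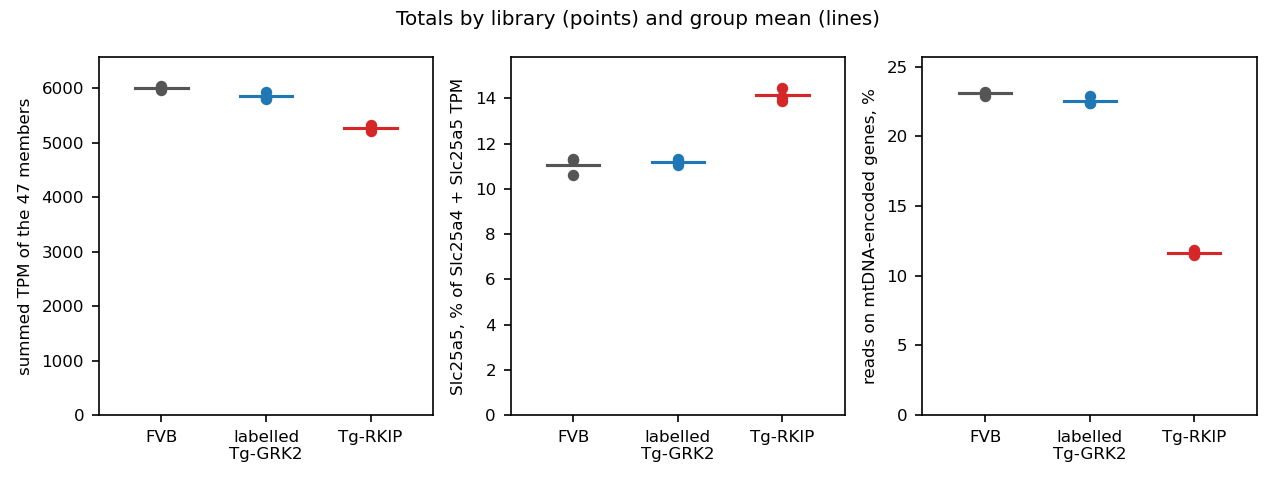
Summed TPM of the 47 members, the percentage of Slc25a5 in the TPM of Slc25a4 and Slc25a5, and the percentage of reads on genes encoded by the mitochondrial DNA, by library (points) with group means (lines). Tg-RKIP lies apart from both other groups in each panel, lower in the first and last and higher in the middle one.

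In the libraries labelled Tg-GRK2 the changes were smaller. Against the same FVB libraries, 10 of the 39 tested members were called higher and 9 lower, where 12.2% of all genes were called higher and 12.2% lower. Library size scaling and DESeq2 size factors each gave 11 higher and 6 lower, without the calls of Slc25a22, Slc25a30 and Slc25a34. No member changed by as much as 0.5 on the log2 scale. The members' median was 0.024, against -0.0023 for all genes. As both comparisons share the FVB libraries, their values are given only side by side.

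Slc25a1 was again the member with the largest rise, at log2 0.49 ± 0.0768 (SE), adjusted p = 5.06e-05, beside 1.44 in Tg-RKIP. Slc25a35 followed with 0.44 ± 0.0935 (SE), adjusted p = 0.00125, beside 0.32. Slc25a37 rose by 0.29 ± 0.0744 (SE), adjusted p = 0.00668, and Slc25a23 by 0.24 ± 0.0401 (SE), adjusted p = 0.000115. Both lost the call when only the most abundant transcript was counted, with Slc25a37 at 0.21 and Slc25a23 at 0.032. The largest fall was that of Slc25a33, at -0.40 ± 0.0553 (SE), adjusted p = 1.27e-05. In Tg-RKIP it was at -0.50 with TMM and at -0.12 with library size scaling. Slc25a30 (-0.20), Slc25a20 (-0.18), Slc25a22 (-0.16), Slc25a13 (-0.14) and Slc25a3 (-0.11) were called lower as well, as were Slc25a4 (-0.11), Slc25a5 (-0.091) and Slc25a34 (-0.077).

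For 5 members the call in these libraries was opposite to that in Tg-RKIP. They were Slc25a15 (0.19 ± 0.0623 (SE), adjusted p = 0.0296), Slc25a26 (0.22 ± 0.0442 (SE), adjusted p = 0.000651), Slc25a36 (0.10 ± 0.0325 (SE), adjusted p = 0.0248), Slc25a38 (0.17 ± 0.0549 (SE), adjusted p = 0.0284) and Slc25a42 (0.12 ± 0.0296 (SE), adjusted p = 0.00406), all higher here and lower in Tg-RKIP with TMM. The falls of Slc25a36 and Slc25a38 in Tg-RKIP are those that turned with library size scaling. No share of all genes with opposite calls is given here, so the count of 5 cannot be set against the background. Slc25a12 (0.018) and Slc25a11 (-0.042), which fell in Tg-RKIP, were not called. In this comparison the calls of Slc25a15, Slc25a22, Slc25a30, Slc25a34, Slc25a36 and Slc25a38 were each lost when a single library was left out.

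Tg-RKIP was also set directly against the libraries labelled Tg-GRK2. Here 23 members were lower and 8 higher, where 36.6% of all genes were called lower and 37.9% higher. Slc25a34 was lowest again (-1.53 ± 0.0296 (SE), adjusted p = 2.59e-21), followed by Slc25a42 (-1.27 ± 0.0319 (SE), adjusted p = 2.68e-19), and Slc25a1 was highest (0.95 ± 0.061 (SE), adjusted p = 5.41e-12). With library size scaling the counts were 14 and 16.

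**Figure D5:**
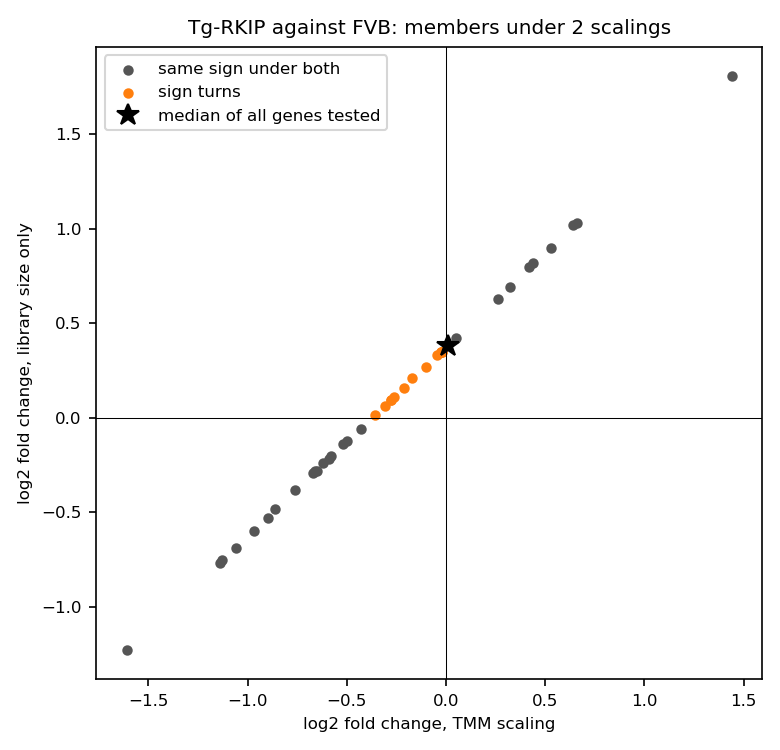
Log2 fold change of the 39 tested members in Tg-RKIP against FVB, with TMM scaling on the x axis and library size scaling on the y axis. The 13 members whose sign turns are in orange, and the star marks the median of all genes tested, at 0.0085 and 0.38.

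Genes that work with these carriers were counted from lists of related genes. Of all genes tested, 37.1% were called lower and 36.8% higher in Tg-RKIP against FVB with TMM. All 4 enzymes of the malate-aspartate shuttle fell in Tg-RKIP, with Got1 at -1.15, Got2 at -0.90, Mdh1 at -0.70 and Mdh2 at -0.71 on the log2 scale. All 6 genes of carnitine uptake and the carnitine shuttle were called lower, among them Acsl1 (-1.50), Cpt2 (-1.25), Crat (-1.10), Slc22a5 (-1.03) and Cpt1b (-0.75). Cpt1a was at -0.31 with TMM and at 0.067 with library size scaling. Of the ATP synthase list 4 of 4 subunits fell with TMM, with Atp5a1 at -0.86, Atp5b at -0.84 and Atp5c1 at -0.85, while Atp5d turned from -0.27 to 0.11 with library size scaling.

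Of the 5 family members that do not carry the Slc25a name, 3 rose and 2 fell in Tg-RKIP. The uncoupling protein Ucp3 fell by log2 -2.21, while Ucp1 (3.08) and Ucp2 (0.99) rose. Ucp1, the uncoupling protein of brown fat, had 27, 46 and 37 reads in FVB hearts and 384, 469 and 354 in Tg-RKIP hearts. The outer membrane relatives Mtch1 and Mtch2 stood at 0.68 and -0.43, and Mtch2 at -0.051 with library size scaling. Among 19 other inner membrane transporters 6 rose and 10 fell, with both subunits of the pyruvate carrier (Mpc1 -0.81, Mpc2 -0.80) and the transporters Abcb8 (-0.89) and Abcb10 (-1.09) lower. Sfxn3 (0.84) and Slc8b1 (0.61) rose, as did Sfxn1 (0.50), while Ccdc51 fell (-0.51). The falls of Mcu and Micu2 turned with library size scaling.

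The porins of the outer membrane were all called lower with TMM (Vdac1 -0.46, Vdac2 -0.22, Vdac3 -0.39), and Vdac2 was at 0.16 with library size scaling. Of 13 genes of the route that inserts carriers into the inner membrane, 7 fell and 2 rose, with Tomm70a, the receptor for carrier precursors, at -0.63 and Timm8a1 at -0.61, and of the 7 Tomm40, Timm9 and Timm29 turned with library size scaling. Among 12 regulators of mitochondrial genes 8 fell with TMM and 1 rose, and Esrra turned from -0.15 to 0.22 with library size scaling. The largest falls were those of Ppara (-2.39), a receptor that drives fatty acid oxidation genes, and of the coactivators Ppargc1a (-1.24) and Ppargc1b (-0.88), followed by Gabpa (-0.78), Perm1 (-0.76), Esrrg (-0.65) and Tfam (-0.55).

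Under the Tg-GRK2 label fewer genes of these lists were called against FVB than in Tg-RKIP, except for the shuttle enzymes. Fewer of all genes were called as well, 12.2% higher and 12.2% lower, against 36.8% and 37.1% in Tg-RKIP. The shuttle enzymes had 1 higher and 3 lower of 4, the carnitine list 1 and 2 of 6, the ATP synthase list 0 and 3 of 4, and the porins 0 and 2 of 3. The other inner membrane transporters had 3 higher and 2 lower of 19, the import route 1 and 5 of 13, and the regulators 2 and 1 of 12. Ucp1 was at 2.28 and Ucp3 at -0.46 on the log2 scale.

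Over the 9 libraries the genes whose log2 TMM-normalised reads ran closest to those of Slc25a4 were Acot2 (Pearson's r = 0.9996), Mb (0.9995), Idh2 (0.9995), Atp5c1 (0.9994) and Tpm1 (0.9991). This is a description over libraries that fall into 3 groups, and it follows the group means. Acot2 and Idh2 are mitochondrial enzymes, Mb is myoglobin, and Tpm1 encodes a tropomyosin.

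Markers of cell types moved with the groups too. For their counts, the shares of all genes called were 37.1% lower and 36.8% higher in Tg-RKIP. Under the Tg-GRK2 label they were 12.2% each way. Of 8 cardiomyocyte markers 7 were called lower in Tg-RKIP with TMM, and their summed TPM was 51388 to 52412 in Tg-RKIP, 55551 to 55813 in the controls and 52817 to 54487 under the Tg-GRK2 label. Myh6, the alpha-MHC gene, was at -1.35 on the log2 scale in Tg-RKIP and Actc1 was not called at -0.018, while Tnnt2 turned from -0.1 to 0.28 with library size scaling. All 6 fibroblast markers rose in Tg-RKIP, with sums of 2124 to 2127 TPM against 843 to 877 in FVB. The 6 macrophage markers rose as well (712 to 719.9 against 275 to 285 TPM). Under the Tg-GRK2 label 3 of 6 in each of these lists were higher than in FVB, with sums of 909 to 919.8 and 308 to 322 TPM.

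Erythroid markers stood at 3477 to 3645 TPM in Tg-RKIP, 739 to 753 in the controls and 1666 to 1691 under the Tg-GRK2 label, with all 6 tested markers higher in both transgenic groups. White adipocyte markers summed to 111 to 115 TPM in Tg-RKIP and 62.0 to 64.5 in FVB, with 5 of 6 higher and Plin4 lower. Under the Tg-GRK2 label they summed to 72.6 to 74.9 TPM, with 4 of 6 higher, among them Plin1 (1.32), Cidec (1.23) and Adipoq (0.95 on the log2 scale). Brown adipocyte markers, which include Ucp1, summed to 87.5 to 91.7 TPM in Tg-RKIP and 54.6 to 57.9 in FVB, with 3 of 5 tested higher and Prdm16 (-0.82) and Ppargc1a (-1.24) lower. Endothelial markers summed to 1074 to 1097 TPM in Tg-RKIP and 776 to 808 in FVB, with 3 of 5 higher and 2 lower.

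Airway club cell markers summed to 189 to 199 TPM under the Tg-GRK2 label and 87.6 to 94.0 in Tg-RKIP, against 0.270 to 0.520 in FVB, where Scgb1a1, Scgb3a2 and Bpifa1 were at 0. Cartilage markers summed to 354 to 361 TPM in Tg-RKIP and 13.2 to 14.7 in FVB, with 4 of 4 tested higher, and to 13.4 to 13.8 under the Tg-GRK2 label. Of the skeletal muscle list 3 of 3 tested genes were higher in Tg-RKIP. Its sum (3517 to 3626 TPM in Tg-RKIP, 419 to 432 in FVB and 458 to 472 under the Tg-GRK2 label) was almost wholly Acta1, a muscle actin with 423 TPM in FVB hearts, while the skeletal myosins Myh1, Myh2 and Myh4 had at most 13 reads in any library. The part of these cell types in the values of the carriers was not tested.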

How the data were processed

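RNA of whole mouse hearts was sequenced as single reads in 9 libraries. The authors deposited, for each of 127558 transcripts, raw read counts and TPM (counts divided by transcript length and scaled to a fixed library total). Their notes name the build GRCm39, and the aligner and the counter are not given in the sources used here. The deposited counts were summed by gene name, as was TPM for levels. Genes were filtered by expression (filterByExpr), scaled by TMM and tested in edgeR 4.0.16 (R 4.3.3) with a quasi-likelihood test over all 9 libraries, 1 mean per group, and p-values were adjusted (Benjamini-Hochberg) over the 15504 genes tested, at a threshold of 0.05. Single values per library were compared by exact two-sided permutation tests, which cannot go below 0.1 with 3 against 3 libraries. The procedure was tested on simulated data in which few genes changed. These data did not hold the shift in composition seen between the groups, so they do not bear on the choice of scaling. The labels number the replicates of each group.

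The members and gene lists were chosen with earlier results of these data known. Values in every library are given for the 8 members with the highest TPM in FVB, the 6 highest and the 6 lowest called changes in each comparison with FVB (with a mean of at least 100 reads in the higher group), those called in opposite directions, and those that turned with the scaling. Genes of other lists were named from a change of 0.5 on the log2 scale, or where a result turned on them. Alternatives were library size scaling, DESeq2 1.42.0 and its size factors, limma 3.58.1 on log2(TPM + 0.1) and log2(TPM + 1) with and without a filter (TPM of at least 1 in 3 libraries), other filters, a minimum fold of 1.5, the most abundant transcript, a replicate block, and each library left out. Promoter windows came from RefSeq (GRCm38.p6) and were matched by symbol, and no coordinates were converted between builds. A few genes of these lists are not reported here by name, though the counts and medians include them.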

Additional observations from a re-analysis of the deposited data

How the results depend on the processing

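Against FVB the Tg-RKIP members called higher were 8 with TMM, 18 with library size scaling, 19 with limma on log2(TPM + 0.1) and on log2(TPM + 1), and 17 without the TPM filter, and those called lower were 23, 14, 13, 13 and 12. Against the libraries labelled Tg-GRK2 the counts higher were 8, 16, 16, 16 and 15, and those lower 23, 14, 15, 15 and 15. The Tg-RKIP median, -0.28 with TMM, was 0.094 with library size scaling, 0.106, 0.102 and 0.106 with the limma settings, -0.446 with the most abundant transcript, and -0.333 to -0.276 when single libraries were left out, with -0.333 without Tg-RKIP replicate 2. A minimum fold of 1.5 left 2 higher and 9 lower in Tg-RKIP against FVB, 0 and 0 for the Tg-GRK2 label against FVB, and 1 and 11 between the transgenic groups. In the libraries labelled Tg-GRK2, limma called 4, 4 and 3 members lower in place of 9, library size scaling and DESeq2 size factors gave 11 higher and 6 lower, and the most abundant transcript gave 4 higher and 5 lower. Their median of 0.024 was 0.074, 0.066 and 0.074 with limma, and -0.019 to 0.041 when single libraries were left out, with -0.019 without FVB replicate 2. The ratio of summed TPM was 0.878, and 0.657 in TMM-normalised reads per kilobase, 0.686 over genes not mitochondrially encoded and 0.861 with the most abundant transcript. The causes of these shifts were not tested. Shares of all genes called are given for the TMM fit only, and not for these other settings.

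These log2 changes in Tg-RKIP reversed. With library size scaling Slc25a5 was 0.11, Slc25a30 0.27, Slc25a36 0.064, Slc25a37 0.35, Slc25a38 0.094 and Slc25a51 0.097. With limma on log2(TPM + 0.1), with and without the filter, they were 0.15, 0.29, 0.11, 0.53, 0.16 and 0.13, and on log2(TPM + 1) 0.15, 0.25, 0.10, 0.44, 0.15 and 0.13. With the most abundant transcript Slc25a37 was 0.62 and Slc25a45 -0.59, while Slc25a14 (0.82) and Slc25a36 (-0.13) kept direction and lost the call. Slc25a37 was 0.0032 with at least 50 reads in 3 libraries, and -0.083 to 0.091 when single libraries were left out. In the libraries labelled Tg-GRK2, Slc25a11 was 0.0077 with limma, Slc25a17 -0.065 and Slc25a45 -0.29 with the most abundant transcript, and Slc25a17 -0.019 to 0.04 when single libraries were left out.

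Of 450 named values with a library left out, 419 kept direction and call and 28 lost the call. In the libraries labelled Tg-GRK2 the lost calls were those of Slc25a15 (without Tg-GRK2 replicate 1 or 2, or FVB replicate 1 or 2), Slc25a22 (Tg-GRK2 replicate 2 or 3, or any FVB library), Slc25a30 (Tg-GRK2 replicate 1 or 2, or FVB replicate 1 or 3), Slc25a34 (any library of these groups, or Tg-RKIP replicate 1), Slc25a36 (any Tg-GRK2 library, or FVB replicate 3) and Slc25a38 (Tg-GRK2 replicate 1 or 3, or FVB replicate 1 or 2). TMM without the mitochondrially encoded genes, no expression filter, and fits on 2 groups alone kept all 50 named values, and DESeq2 kept 44. Same-numbered libraries did not deviate together (correlations -0.0414 to 0.0422). With a replicate block the counts were 8 higher and 23 lower in Tg-RKIP, and 10 and 7 under the Tg-GRK2 label, where Slc25a22 and Slc25a30 lost the call. The expression filter left 8 members untested, each with under 20 reads in every library.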
